A study of Homo sapiens with 6 samples.

Results

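IRE1, the product of ERN1, is a sensor of unfolded protein in the membrane of the endoplasmic reticulum (ER). When it oligomerises, its cytosolic nuclease removes a short intron from XBP1 mRNA outside the nucleus, the tRNA ligase RTCB joins the exons, and the spliced mRNA encodes a transcription factor that raises genes of ER folding and transport. The same nuclease is reported to cut other mRNAs at a similar hairpin, which are then degraded, a process called regulated IRE1-dependent decay (RIDD). The genes described here are ERN1, XBP1, RTCB and 6 mRNAs reported as RIDD substrates (BLOC1S1, SCARA3, COL6A1, HGSNAT, SPARC and PMP22). They were chosen by name, with earlier results of these data known, and all 9 were found among the 64299 gene identifiers of the counts table. All 9 passed the filter on low counts that left 16243 genes for testing.

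Poly(A) RNA was sequenced in 6 libraries of HEK293T, an immortal kidney-derived human cell line carrying the SV40 large T antigen. The ERbeta group (n = 3) was transfected with a plasmid of that name and the EV_Ctrl group (n = 3) with an empty vector, with a lipid-based reagent in both groups. The labels do not define ERbeta. It is read here, from knowledge of the field, as a designed β-sheet protein that is sent to the ER, and not as an estrogen receptor. The plasmid's own transcript was not analysed here. No selection of transfected cells is given in the labels, so a library can mix cells with and without the plasmid.

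Total counts were 13149304 to 16531368 in ERbeta and 6833442 to 27101644 in EV_Ctrl. All 9 marker genes listed for HEK293T were above 1 CPM (counts scaled to a library size that carries the TMM factor of edgeR), whereas of the 4 blood markers 3 had 0 reads. The libraries differed in how counts depended on the GC content of a gene. At 40% GC the fitted trend stood 0.38 and 0.32 below the mean of the libraries in EV_Ctrl 1 and 3 (-0.38 and -0.32 on the log2 scale), and at 0.09 to 0.35 in the ERbeta libraries. EV_Ctrl 2, at 0.11, was on the side of ERbeta. Values with a correction for this trend are therefore given beside most results.

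The stretch of XBP1 mRNA on which IRE1 acts is shown first, because the counts described here sum its spliced and unspliced forms. It lies in exon 4 of the coding transcript XBP1-201, within the coding sequence, at chr22:28796112-28796165 (GRCh38, minus strand, GENCODE 29). Capitals mark the 26 bases between the cut points of the paired hairpins. Their removal shifts the reading frame, since 26 leaves a remainder of 2 when divided by 3.
XBP1 intron: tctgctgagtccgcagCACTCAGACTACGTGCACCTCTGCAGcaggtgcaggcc
Of 7 XBP1 models in the annotation, 4 held this stretch with both flanks and 2 held the joined flanks without it. A gene-level count includes both kinds, so splicing was not measured.

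The same kind of hairpin was searched for in 1 coding transcript per gene, the longest. The search asked for CNGCAGN as a loop of 7 bases closed by at least 4 consecutive pairs (G-T pairs allowed), on the transcript strand. Such a site was present in 13.3% of 19684 transcripts. The bare letters CTGCAG, which can lie inside that loop, were present in 83.1% and so set few genes apart. Among the 9 genes, XBP1 held 2 such hairpins, ERN1, BLOC1S1, COL6A1 and PMP22 held 1 each, and none was found in RTCB, SCARA3, HGSNAT or SPARC. The searched form is that of the XBP1 hairpins, so a match in XBP1 was fixed in advance. Among transcripts within 20% of the same length, the share with a hairpin was 9.11% for XBP1 and 5.58% for BLOC1S1. It was 9.16% for PMP22, 15% for COL6A1 and 22% for ERN1. For the genes without a site it was 10.1% (RTCB), 13.9% (SCARA3), 14.3% (SPARC) and 17.9% (HGSNAT). The sites are shown 5′ to 3′ with the loop in capitals, so that the loops can be compared.
XBP1 first hairpin: tctgctgagtCCGCAGCactcagacta
XBP1 second hairpin: acgtgcacctCTGCAGCaggtgcaggc
BLOC1S1 hairpin: caaagggcagCTGCAGTctgccccttc
PMP22 hairpin: aaacgaatggCTGCAGTctgtccaggc
ERN1 hairpin: cggagagaagCAGCAGActttgtcatc
COL6A1 hairpin: cggcacgggcCAGCAGCgcccagagcg
The closing stem held 6 and 7 pairs in XBP1, 6 in BLOC1S1 and 4 in each of PMP22, ERN1 and COL6A1. The BLOC1S1 site was in the 3′ UTR of the longest coding model and in coding sequence in 3 of the 6 BLOC1S1 models. The other sites were coding in the transcript searched. In GRCh38 the loops lie at chr22:28796149-28796155 and chr22:28796123-28796129 (XBP1, exon 4), chr12:55719589-55719595 (BLOC1S1, exon 3), chr17:15239600-15239606 (PMP22, exon 4), chr17:64072047-64072053 (ERN1, exon 6) and chr21:46003573-46003579 (COL6A1, exon 35). A match is a description of letters and pairs and does not show that a site is cut.

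ERN1 encodes the sensor itself. It was at 28.4, 19.3 and 26.6 CPM in ERbeta 1, 2 and 3 and at 23.7, 19.8 and 32.0 CPM in EV_Ctrl 1, 2 and 3. The groups overlapped fully, and in each the library labelled 2 was the lowest. A log2 fold change of -0.02 ± 0.22 was estimated for ERbeta over EV_Ctrl (SE, edgeR's quasi-likelihood test, n = 3 each), with an adjusted p of 0.977 over all genes. The 95% interval of the fold ran from 0.697 to 1.40, so a change of ERN1 mRNA within that range could not be told from none with these 3 libraries a group. With GC correction the estimate was 0.06, or 0.05 by coding transcripts. ERN2, the second IRE1 gene, known from mucosal epithelium, had 0 to 2 reads per library and was not tested.

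XBP1 had the largest log2 fold change of the 9 genes, in either direction. It was at 129, 138 and 131 CPM in ERbeta 1, 2 and 3 and at 91.3, 84.3 and 89.7 CPM in EV_Ctrl 1, 2 and 3. Every ERbeta library lay above every EV_Ctrl library, and the gap between groups was several times the spread within either. The fold was 1.5 (95% interval 1.29 to 1.75), a log2 fold change of 0.59 ± 0.09 with an unadjusted p of 0.000302. Across all genes 9.54% had an unadjusted p under 0.05 on the higher side, and 18.7% had groups without overlap, 10.2% with ERbeta higher. With Benjamini-Hochberg adjustment in edgeR XBP1 did not pass (adjusted p = 0.256), and neither did any other gene (0.0% of 16243 called). DESeq2's test gave XBP1 an adjusted p of 0.00182, and that tool called 57 genes, 56 higher (0.321% of its genes) and 1 lower (0.00573%). In the authors' deposited table (DESeq2) XBP1 had a log2 fold change of 0.44, a standard error of 0.16 and an adjusted p of 0.0798. DESeq2 as run here gave 0.58 ± 0.12, and the cause of the difference was not tested. The authors' table held 421 genes with an adjusted p under 0.05, of which 0 were among the 9. The share of its genes that these make up was not computed. Without EV_Ctrl 2 the edgeR test called 2324 genes, 13.5% of those tested as higher and 0.775% as lower, and XBP1 passed at an adjusted p of 0.00639 (log2 fold change 0.56 ± 0.12).

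**Figure D1:**
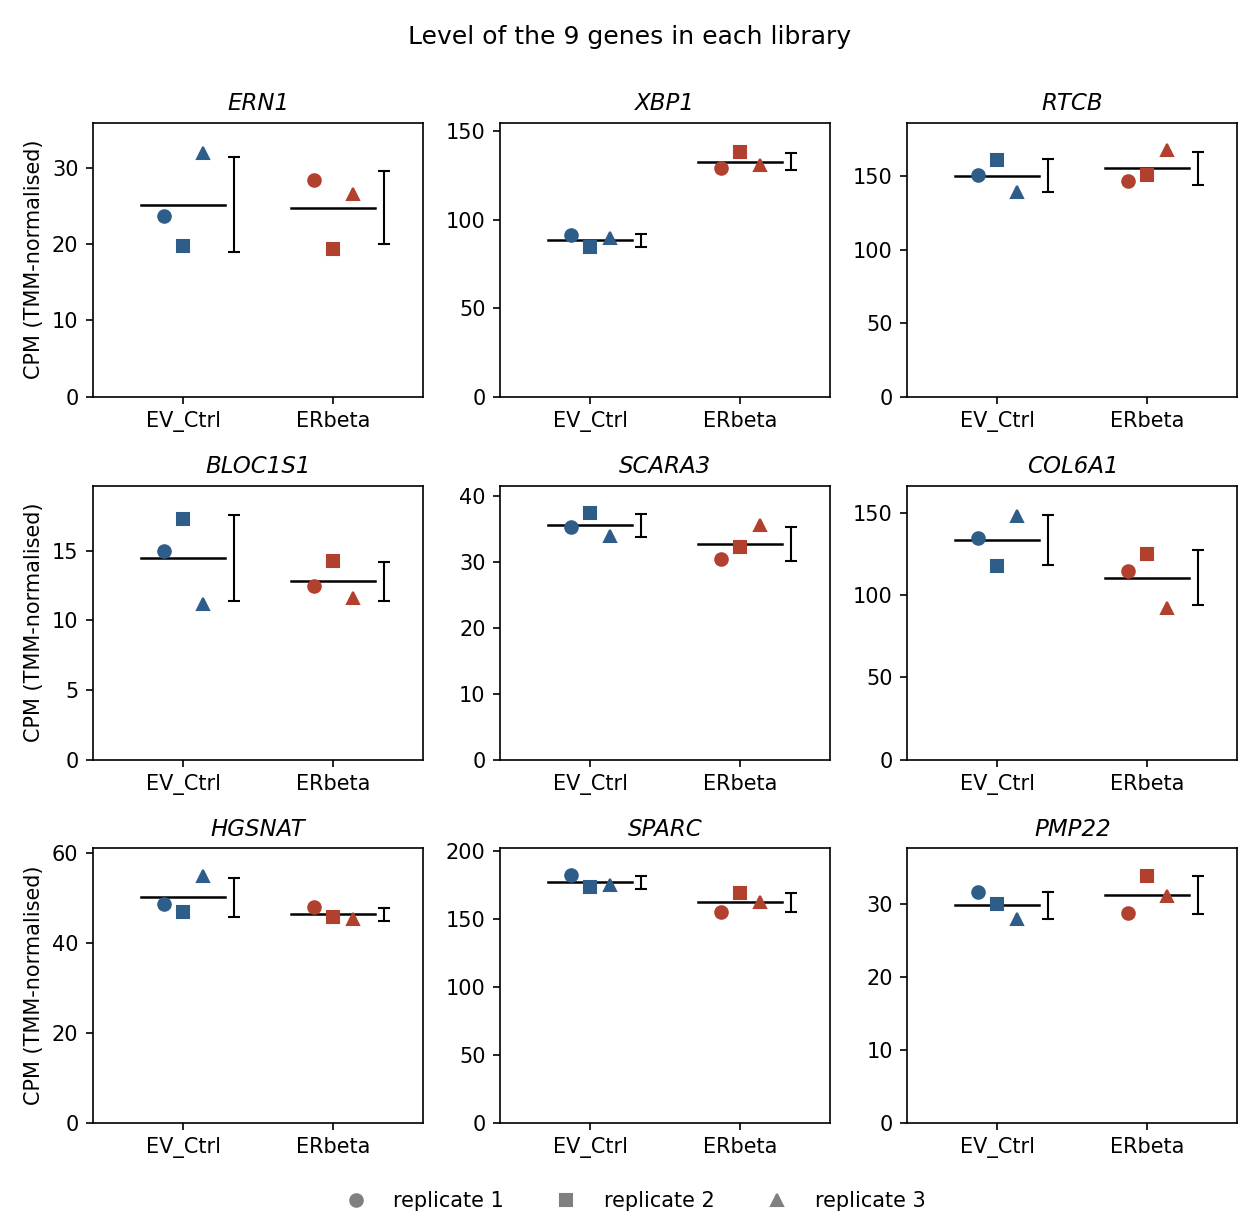
TMM-normalised CPM (vertical axis, from 0) of the 9 genes in the EV_Ctrl and ERbeta libraries; each point is a library with its shape giving the replicate number, horizontal lines are means and bars are SD (n = 3). XBP1 lies between 129 and 138 CPM in ERbeta and between 84.3 and 91.3 in EV_Ctrl, and SPARC is the other gene whose groups do not overlap.

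The correction for GC content moved XBP1 in a way that turned on the gene model used. The longest XBP1 transcript of any type is a retained-intron model of 2173 bases with 41.5% GC, whereas the longest coding transcript has 1850 bases and 50.1% GC. With the GC value of the retained-intron model, XBP1 was at 121, 134 and 108 CPM in ERbeta and 111, 79.6 and 105 CPM in EV_Ctrl. The groups then overlapped, and the log2 fold change was 0.30 ± 0.14 (adjusted p = 0.465 in edgeR). With the value of the coding transcript, an alternative chosen after the data were seen, it was at 130, 141 and 135 CPM against 88.9, 85.5 and 86.3 CPM. The log2 fold change was then 0.64 ± 0.08, and XBP1 was among 12 genes called (0.0746% of 16091 genes tested on the higher side), with an adjusted p of 0.0478. That call ended when any single library other than EV_Ctrl 2 was left out (adjusted p 0.138 to 0.344), while the log2 fold change kept between 0.61 and 0.67. Below, GC correction means that by coding transcripts unless stated otherwise. For the other 8 genes the longest transcript is itself coding, and both GC values gave log2 fold changes within 0.01 of each other.

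**Figure D2:**
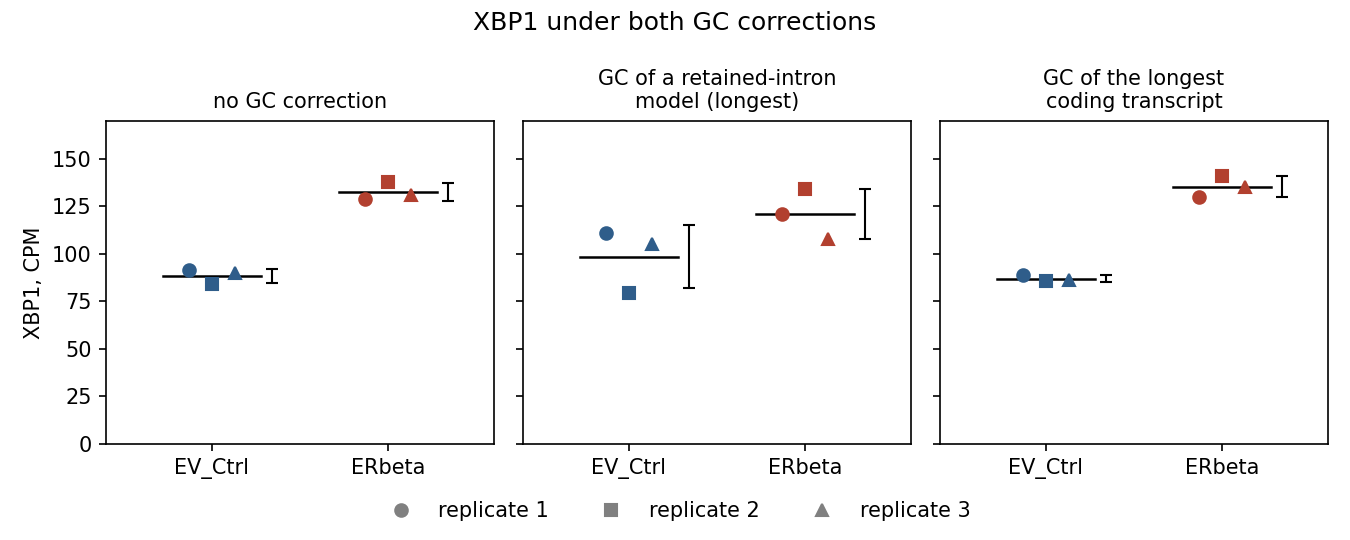
XBP1 level in CPM (vertical axis, from 0) in each library without GC correction, with the GC value of the longest, retained-intron model, and with that of the longest coding transcript; points are libraries, lines means and bars SD (n = 3). The groups overlap in the middle panel, where EV_Ctrl 1 is at 111 and ERbeta 3 at 108 CPM, and are apart in the other two.

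The XBP1 promoter was examined because the gene is a known target of the ER stress factor ATF6 as well as a substrate of IRE1. The RefSeq promoter window (GRCh38.p14, 250 bases before to 50 after the start) of 35116 promoters was searched on both strands for the ER stress element (CCAAT and CCACG with 9 bases between), the ER stress element II (ATTGG and CCACG with 1 base between) and the unfolded protein response element (TGACGTGG). They occurred in 0.0769%, 0.0541% and 0.729% of windows. Windows were found for 6 of the 9 genes, and the only match was an ER stress element in XBP1, beginning 52 bases before the start. It is shown with its fixed letters in capitals, at chr22:28800570-28800661 on the minus strand.
XBP1 promoter: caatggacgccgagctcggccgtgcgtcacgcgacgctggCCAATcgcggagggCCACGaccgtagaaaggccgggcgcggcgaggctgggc
The match describes these letters and does not show binding. HSPA5, the ER chaperone BiP, had the pattern most like that of XBP1 over the 6 libraries among 11113 genes whose log2 CPM averaged 3 or more (Pearson r of 0.98 in log2 CPM). The next were JUN, an AP-1 subunit, at 0.977 and SNRNP27, a spliceosome protein, at 0.973. For ERN1 they were FCHSD2 at 0.995, XPNPEP3 at 0.986 and SLC7A1, a cationic amino acid transporter, at 0.985. These values describe 6 points that share depth and GC differences between libraries. For XBP1 they also carry the difference between the groups, so a gene with a like difference scores high. A shared regulator was not tested.

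RTCB, the ligase that joins the XBP1 exons and also split tRNAs, did not differ detectably. It was at 147, 151 and 168 CPM in ERbeta and 151, 161 and 139 CPM in EV_Ctrl, with overlapping groups. The log2 fold change was 0.04 ± 0.11 (adjusted p = 0.862 in edgeR), or 0.08 with GC correction, with a 95% interval of the fold from 0.87 to 1.22. The sign turned, to -0.05, with library size alone as the scaling, which moved the median of all genes from -0.01 to -0.10.

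The RTCB complex, a tRNA ligase complex with the helicase DDX1 and accessory proteins, had 7 members including RTCB. All 7 had a positive log2 fold change, against 48.3% of all genes, and the median was 0.26. This list too was written with earlier results of these data known. None passed the test, and 1 of the 7, C2orf49, lay higher without overlap, where 10.2% of all genes did. DDX1 was at 236, 248 and 283 CPM in ERbeta and 144, 255 and 129 CPM in EV_Ctrl, a log2 fold change of 0.54 ± 0.25 (adjusted p = 0.401 in edgeR), or 0.42 with GC correction. FAM98B was at 63.5, 70.1 and 87.7 CPM against 43.4, 68.2 and 35.3 CPM. FAM98B had a log2 fold change of 0.58 ± 0.25 without GC correction and 0.06 with it. In both genes EV_Ctrl 2 lay among the ERbeta libraries and EV_Ctrl 1 and 3 below them. In 6 of the 7 members EV_Ctrl 2 was at or above the lowest ERbeta library. With EV_Ctrl 2 as the single control 4 of 7 were positive with a median of 0.01. Without EV_Ctrl 2 3 passed as higher, where 13.5% of all genes did. With GC correction (coding transcripts) 5 of 7 were positive with a median of 0.03. C2orf49 was at 0.20 ± 0.11 without correction and -0.33 with it. The part of GC content in the values of this complex was not tested beyond these corrections.

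The 6 reported RIDD substrates did not differ detectably between the groups. Of the 6, 5 had a negative log2 fold change, with a median of -0.12 against -0.01 over all genes, and PMP22 was positive. None passed the test in either direction (0.0% of all genes passed), and none had an unadjusted p under 0.05, where 2.88% of all genes did on the lower side. SPARC alone lay lower without overlap, against 8.48% of all genes. With GC correction (coding transcripts) 2 of the 6 were positive and the median was -0.08.

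BLOC1S1, a subunit of a complex of lysosome-related organelle biogenesis and the substrate most often used to follow this decay, was at 12.5, 14.3 and 11.6 CPM in ERbeta. In EV_Ctrl it was at 15, 17.3 and 11.2 CPM. EV_Ctrl 3 was the lowest of all 6 libraries, so the groups overlapped. The log2 fold change was -0.19 ± 0.18 (adjusted p = 0.657 in edgeR), and it was -0.09 with GC correction and -0.01 without EV_Ctrl 2. It rested on 108 to 459 reads per library, the fewest of the 9 genes. In addition, 29.8% of its exonic bases are shared with the read-through gene BLOC1S1-RDH5, which held 11 to 46 reads, so the authors' counting could have set shared reads aside.

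COL6A1, a chain of the extracellular collagen VI, had the lowest log2 fold change of the 9. It was at 115, 125 and 92.1 CPM in ERbeta and 135, 118 and 148 CPM in EV_Ctrl. The groups overlapped at ERbeta 2 and EV_Ctrl 2. Its log2 fold change was -0.27 ± 0.15 (adjusted p = 0.453 in edgeR). COL6A1 has the highest GC content of the 9 transcripts, 63.5%. After GC correction (coding transcripts) it was at 117 to 119 CPM in ERbeta and 117 to 135 CPM in EV_Ctrl, a log2 fold change of -0.07 ± 0.09.

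SPARC, a secreted protein that binds collagen and calcium, was at 155, 169 and 162 CPM in ERbeta and 182, 173 and 175 CPM in EV_Ctrl. The groups did not overlap, with ERbeta 2 and EV_Ctrl 2 closest to each other. SPARC had a log2 fold change of -0.12 ± 0.09 (adjusted p = 0.554 in edgeR), and GC correction left it at -0.13. Leaving out any single library gave -0.15 to -0.10. No hairpin of the searched form was found in its transcript, and its 2 CTGCAG matches lay outside the coding sequence. Both genes belong to the extracellular matrix, so fibroblast markers were read beside them. Of 6 such markers 5 had reads, and 4 averaged above 1 CPM (COL1A1, COL3A1, LUM and PDGFRA). The summed level of the list was 22.6 to 28.1 CPM in ERbeta and 27.1 to 38.0 CPM in EV_Ctrl, most of it COL1A1. COL1A2 had 0 reads and DCN at most a trace (0.0251 CPM as the mean of EV_Ctrl).

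HGSNAT, a lysosomal enzyme of heparan sulfate breakdown, was at 48.0, 45.6 and 45.2 CPM in ERbeta and 48.5, 46.8 and 54.9 CPM in EV_Ctrl. ERbeta 1 lay above EV_Ctrl 2, and the log2 fold change was -0.11 ± 0.11 (adjusted p = 0.653 in edgeR), or -0.08 with GC correction. SCARA3, a scavenger receptor-like protein linked to oxidative stress, was at 30.4, 32.2 and 35.5 CPM in ERbeta and 35.2, 37.4 and 33.9 CPM in EV_Ctrl. ERbeta 3 fell inside the EV_Ctrl range. Its log2 fold change was -0.12 ± 0.11 and turned to 0.02 with GC correction (coding transcripts), with neither value passing. PMP22, a membrane protein of myelin that folds poorly in the ER, was at 28.7, 33.9 and 31.1 CPM in ERbeta and 31.6, 30.0 and 27.9 CPM in EV_Ctrl. Its groups overlapped, and its log2 fold change was 0.07 ± 0.12, 0.04 with GC correction and -0.02 with library size alone.

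**Figure D3:**
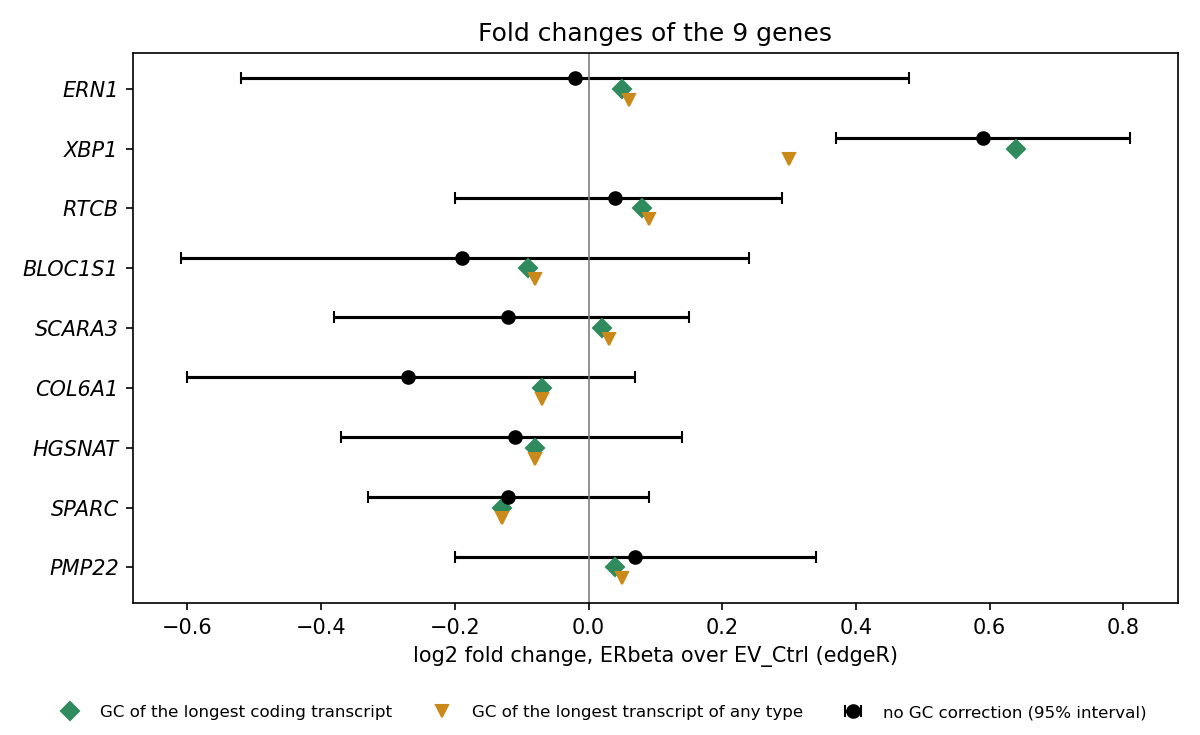
Log2 fold change of ERbeta over EV_Ctrl (horizontal axis) for the 9 genes; black points are edgeR estimates with 95% intervals (n = 3 each), diamonds and triangles the estimates after GC correction with the longest coding transcript or the longest transcript of any type. The interval of XBP1, 0.37 to 0.81, is the only one of the 9 that does not include 0.

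The intervals limit how large a loss of the substrate mRNAs could have gone unseen. The lower 95% bounds of the fold were 0.656 for BLOC1S1, 0.658 for COL6A1, 0.766 for SCARA3, 0.773 for HGSNAT, 0.793 for SPARC and 0.868 for PMP22. The upper bounds ranged from 1.05 for COL6A1 to 1.27 for PMP22. Larger losses than these lay outside the intervals, and smaller ones could not be told from none. In bulk RNA a partial loss in the transfected cells alone and a smaller loss in all cells cannot be told apart.

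Other mRNAs reported as degraded by IRE1 did not pass either. Of the 5 that were tested, 4 were negative, none passing. The median was -0.15 against -0.01 over all genes, of which 48.3% were positive. TNFRSF10B, the death receptor DR5, was at 163, 159 and 175 CPM in ERbeta and 182, 173 and 195 CPM in EV_Ctrl. ERbeta 3 lay just above EV_Ctrl 2, and the log2 fold change was -0.15 ± 0.10 (adjusted p = 0.516 in edgeR), or -0.09 with GC correction. TGOLN2, a protein of the trans-Golgi network, was at 202, 175 and 209 CPM against 228, 210 and 224 CPM. It lay lower without overlap, as 8.48% of all genes did, at -0.18 ± 0.10, or -0.16 with GC correction. DGAT2, an enzyme of triglyceride synthesis, was at -0.27 ± 0.17, or -0.17 with GC correction. PDGFRB, a growth factor receptor, had 1 to 10 reads per library and was not tested.

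Genes reported as targets of spliced XBP1 mostly had positive log2 fold changes. The list was written with earlier results of these data known, so its counts describe the listed genes only. Of 22 listed and tested, 20 had a positive log2 fold change (48.3% of all genes did), and the median was 0.24 against -0.01 over all genes. None passed over all genes in edgeR, 9 lay higher without overlap (10.2% of all genes) and 1, WFS1, lay lower (8.48%). Averaged over the list, log2 CPM stood at 6.39, 6.39 and 6.51 in ERbeta 1, 2 and 3, 6.27 in EV_Ctrl 2 and 6.04 and 6.03 in EV_Ctrl 1 and 3. With EV_Ctrl 2 as the single control 17 were positive with a median of 0.15. Without EV_Ctrl 2 9 passed as higher, where 13.5% of all genes did. With GC correction (coding transcripts) 18 were positive with a median of 0.20. By the longest transcript of any type 16 were positive with a median of 0.18.

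DNAJB9, a co-chaperone of BiP that also acts on IRE1, had the largest log2 fold change of the list. It was at 33.2, 30.7 and 37.8 CPM in ERbeta and 11.5, 20.9 and 13.3 CPM in EV_Ctrl, with no overlap. Its log2 fold change was 1.13 ± 0.22 (adjusted p = 0.333 in edgeR and 0.00475 in DESeq2), and 0.79 with GC correction (adjusted p = 0.0573 in edgeR). DNAJC3, an inhibitor of the kinase PERK and a BiP co-chaperone, was at 60.3, 51.7 and 73.0 CPM against 33.1, 42.9 and 37.9 CPM. Its log2 fold change of 0.70 ± 0.16 was 0.28 with GC correction. DNAJB11, another BiP co-chaperone, was at 117, 127 and 127 CPM against 88.8, 95.2 and 82.7 CPM. For DNAJB11 the log2 fold change was 0.48 ± 0.10, and GC correction gave 0.52 by coding transcripts but -0.07, with overlapping groups, by the longest transcript of any type. SEC24D, a cargo-binding coat protein of vesicles that leave the ER, was at 43.6, 44.1 and 52.4 CPM against 31.2, 34.5 and 33.6 CPM (0.49 ± 0.12, and 0.42 with GC correction). For all 4 genes the lowest ERbeta library exceeded the highest EV_Ctrl library, as for 10.2% of all genes, and none passed over all genes in edgeR. DNAJB9, DNAJB11 and DNAJC3 were named for the 3 lowest p-values of the list, so their lack of overlap adds no support. In the authors' deposited table (DESeq2) the adjusted p was 0.00716 for DNAJB9, 0.000888 for DNAJC3, 0.00489 for DNAJB11 and 0.00022 for SEC24D.

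EDEM1, a mannosidase-like factor of ER-associated degradation that is often read as an XBP1 target, did not follow them. It was at 68.4, 64.2 and 92.0 CPM in ERbeta and 66.2, 67.1 and 79.7 CPM in EV_Ctrl, with overlapping groups. EDEM1 had a log2 fold change of 0.08 ± 0.16, -0.01 with GC correction and -0.10 without ERbeta 3. Its adjusted p in the authors' deposited table (DESeq2) was 0.797. WFS1, an ER membrane protein (named with its values known), was at 30.2, 31.2 and 24.8 CPM against 36.3, 33.9 and 37.2 CPM. It lay lower without overlap at -0.31 ± 0.13, and at -0.15 with GC correction. SEC61A1, the pore of the translocon, was at -0.01 ± 0.10, or 0.09 with GC correction.

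**Figure D4:**
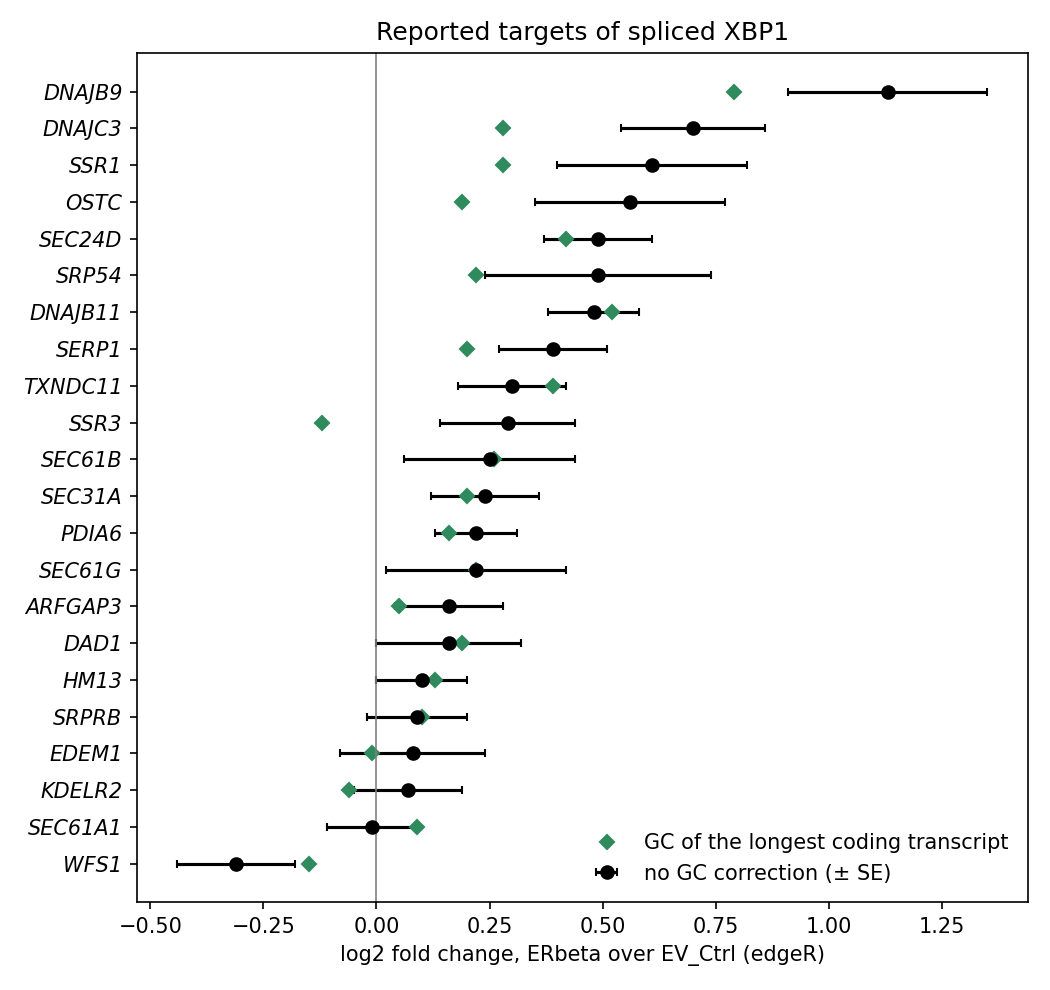
Log2 fold change of ERbeta over EV_Ctrl (horizontal axis) for the 22 genes reported as targets of spliced XBP1; black points are edgeR estimates ± SE (n = 3 each) and diamonds the estimates after GC correction with the longest coding transcript. Estimates run from -0.31 for WFS1 to 1.13 for DNAJB9, with 20 of 22 above 0 before correction and 18 after it.

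Regulators and partners of IRE1 were mixed. Of 16 tested, 10 were positive and 6 negative with a median of 0.08, 5 lay higher and 2 lower without overlap (10.2% and 8.48% of all genes), and none passed in edgeR. HSPA5, which binds IRE1 at rest, was at 870, 877 and 888 CPM in ERbeta and 530, 536 and 501 CPM in EV_Ctrl, a log2 fold change of 0.75 ± 0.08 (adjusted p = 0.13 in edgeR and 2.58e-08 in DESeq2). With GC correction by coding transcripts, the alternative chosen after the data were seen, it was 0.70 and passed (adjusted p = 0.0478 in edgeR). That setting called no gene when any single library other than EV_Ctrl 2 was left out. By the longest transcript of any type HSPA5 was at 0.71 and did not pass (adjusted p = 0.0507 in edgeR). SEL1L, the partner of the ubiquitin ligase that turns over IRE1, was at 110, 102 and 142 CPM against 61.7, 84.8 and 63.5 CPM. Its log2 fold change of 0.75 ± 0.18 was 0.31 with GC correction. SYVN1, that ligase (HRD1), was at 61.9, 62.9 and 37.1 CPM against 56.4, 41.8 and 54.9 CPM, with overlapping groups and a log2 fold change of 0.09 ± 0.22, or 0.22 with GC correction. Its sign turned without ERbeta 1, ERbeta 2 or EV_Ctrl 2. In the authors' deposited table (DESeq2) the adjusted p was 3.59e-21 for HSPA5, 0.000204 for SEL1L and 0.843 for SYVN1. TRAF2 and MAP3K5, which link IRE1 to the kinase JNK, were at -0.14 ± 0.12 and 0.07 ± 0.12, both 0.03 with GC correction. The JNK gene MAPK8 was at 0.18 ± 0.14, with overlapping groups. With GC correction MAPK8 was at -0.41 and did not pass (adjusted p = 0.434 in edgeR). It then lay lower without overlap, at 41.0 to 42.6 CPM in ERbeta and 45.7 to 66.7 CPM in EV_Ctrl. The share of all genes without overlap after GC correction was not computed. PTPN1 and BAK1, both reported to promote IRE1 signalling, lay lower without overlap at -0.12 ± 0.10 and -0.08 ± 0.09, and overlapped after GC correction.

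Per length of annotated exon, the 9 genes differed by over an order of magnitude. In CPM per kilobase of annotated exon (level, mean over 6 libraries with the range), RTCB was at 51.8 (47.1 to 56.9), XBP1 at 36.5 (27.9 to 45.7) and SPARC at 35.0 (32.0 to 37.6). COL6A1 followed at 22.9 (17.2 to 27.6), PMP22 at 9.48 (8.65 to 10.5), SCARA3 at 8.46 (7.55 to 9.29), BLOC1S1 at 8.25 (6.78 to 10.4), HGSNAT at 5.39 (5.05 to 6.14) and ERN1 at 2.30 (1.78 to 2.94). Ranges overlapped between XBP1 and SPARC and among PMP22, SCARA3 and BLOC1S1, and no others did. XBP1 stood below SPARC in EV_Ctrl (29.2 ± 1.2 against 36.5 ± 0.949, SD, n = 3) and above it in ERbeta (43.9 ± 1.62 against 33.5 ± 1.54). This order depended on the length used: per length of the longest coding transcript they were level in EV_Ctrl, at 47.8 and 47.7.

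All 9 are protein-coding genes of GRCh38 (GENCODE 29). On chromosome 17 lie ERN1 (64039142 to 64130819, minus strand) and PMP22 (15229777 to 15265357, minus strand), and on chromosome 22 XBP1 (28794555 to 28800597, minus strand) and RTCB (32387582 to 32412255, minus strand). BLOC1S1 lies on chromosome 12 (55716037 to 55720087, plus strand), COL6A1 on chromosome 21 (45981737 to 46005050, plus strand) and SPARC on chromosome 5 (151661096 to 151687165, minus strand). SCARA3 and HGSNAT lie on chromosome 8. Models on the opposite strand share 7.9% of the exonic bases of SPARC and 8.6% of those of PMP22, and those models held 0 and 1 to 7 reads per library.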

How the data were processed

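The authors deposited raw whole-number read counts per gene for 6 libraries (TruSeq Stranded mRNA, per the labels' protocols). The authors' tools were TopHat2, featureCounts and DESeq2 on hg38, per the submitters' processing notes. Their annotation and strand setting were not given in the sources used here. The authors' deposited comparison holds a mean signal, a log2 fold change, its error and Wald statistic as scores, and p-values, per the file headers, and was only quoted. A symbol was matched for 40995 identifiers. Counts were filtered with filterByExpr (minimum count 10, total 15), TMM-normalised and tested with edgeR 4.0.16 in R 4.3.3 over 16243 genes (Benjamini-Hochberg, threshold 0.05; biological coefficient of variation 17.5%). Errors and 95% intervals come from the quasi-likelihood F statistic. GC correction used a loess offset (span 0.5) per library, for 99.1% of tested genes. Whether replicates were separate cultures is not stated in the labels. The p-values therefore rest on a spread that may be technical. No pair within a group agreed within counting noise. Alternatives were DESeq2 1.42.0, limma 3.58.1 (voom), other scalings and filters, a replicate block, GC correction and leaving out libraries. The steps were tested on simulated data. Genes were named by rule: all 9, the 3 lowest p-values in each list, DNAJB9, EDEM1, SEC24D, HSPA5, SYVN1, TNFRSF10B, PDGFRB, ERN2, and the 3 genes most like XBP1 or ERN1. In the 16 regulators and partners, PTPN1, BAK1, TRAF2, MAP3K5 and MAPK8, and among targets WFS1, SEC61A1 and SEC61G, were named after their values were seen. So were DDIT3 and the other genes called with coding-transcript GC correction, except HSPA5 and XBP1. Members and lists were chosen with earlier results of these data known. Lists for endothelial cells (1 of 4 markers above 1 CPM) and hepatocytes (0 of 3) were read as well. Figures were drawn with matplotlib. One listed gene is not reported here.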

Additional observations from a re-analysis of the deposited data

How the results depend on the processing

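In this section GC correction means that by the longest transcript of any type, unless coding transcripts are named. In edgeR 0 genes passed (2018 at an unadjusted p under 0.05). The count was 51 without a filter on low counts, 57 with DESeq2's test, 1 with limma-voom, 12 with GC correction by coding transcripts, 1706 with GC correction without EV_Ctrl 2, 1654 with coding-transcript GC correction without EV_Ctrl 2, and 0 to 2324 when each library was left out, the last without EV_Ctrl 2. XBP1 kept its direction throughout. It passed with DESeq2 (0.58), with coding-transcript GC correction (0.64) and without EV_Ctrl 2 (0.56; 0.63 with coding-transcript GC correction as well), and log2 fold changes without each library were 0.56 to 0.61. With GC correction by the longest transcript and without EV_Ctrl 2 it was 0.16.

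Among the genes followed through every setting, signs turned for the following, most of them near 0 in the report but not C2orf49 (0.20) and DNAJB11 (0.48). ERN1 was at 0.01 with limma-voom, 0.06 with GC correction, 0.05 with GC correction and replicate block, 0.05 with coding-transcript GC correction, -0.17 to 0.20 without each library (0.14 without ERbeta 2) and 0.32 without both EV_Ctrl 1 and 3. RTCB was at -0.05 with library size only, -0.02 to 0.10 without each library (-0.01 without EV_Ctrl 3) and -0.05 without both EV_Ctrl 1 and 3. BLOC1S1 was at 0.15 with GC correction and without EV_Ctrl 2. SCARA3 was at 0.03 with GC correction, 0.02 with the block as well, 0.02 with coding-transcript GC correction and 0.12 with GC correction without EV_Ctrl 2. PMP22 was at -0.02 with library size only. Of the other named genes, C2orf49 was at -0.31 with GC correction, -0.30 with the replicate block as well, -0.33 with coding-transcript GC correction and -0.48 with GC correction without EV_Ctrl 2. DNAJB11 was at -0.07, -0.06 and -0.22 in these settings other than the coding-transcript one. EDEM1 was at -0.03 with library size only, -0.002 with GC correction, -0.01 with GC correction and block, -0.01 with coding-transcript GC correction, -0.10 to 0.18 without each library (lowest without ERbeta 3) and -0.07 with GC correction without EV_Ctrl 2. SYVN1 was at -0.01 with library size only and at -0.04 to 0.30 without each library (-0.04, -0.03 and -0.03 without ERbeta 1, ERbeta 2 or EV_Ctrl 2). Other named genes were not followed through every setting. With GC correction by the longest transcript of any type, MAPK8 turned from 0.18 to -0.39 and SEC61G from 0.22 to -0.38. TRAF2, BAK1 and SEC61A1 turned as well. The cause of these turns was not tested.

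Whether same-numbered libraries shared a culture or day is not given in the labels. Their deviations from the group mean correlated at 0.23, -0.14 and -0.15. With 3 libraries a group and GC trends that differ between libraries, these values cannot settle it. With the replicate block 0 genes passed and XBP1 was at 0.59 (adjusted p 0.433 in edgeR); it changed no call. Total counts ran from 6833442 to 27101644, and how far depth rather than spread between libraries limits the precision was not tested.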

Other observations

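The gene model behind the GC value mattered beyond XBP1. For 531 of the tested genes (3.3%) the longest transcript of any type and the longest coding transcript differed by over 5 percentage points of GC. Among the reported targets of spliced XBP1, DNAJB11 was at a log2 fold change of -0.07 with the first value and 0.52 with the second, against 0.48 without correction, and SEC61G, a translocon subunit (named with its values known), had -0.38 and 0.22. HSPA5, at 0.71 and 0.70, was not moved. With the coding-transcript value edgeR called 12 genes. The largest log2 fold changes among them were those of LHFPL3-AS1 (4.12), WFIKKN2 (3.65), MGAM2 (2.75) and TAT (2.62). The others were COL20A1, MGAM, SH2D3C, CFAP43, ARRDC3, HSPA5, XBP1 and DDIT3, the stress factor CHOP, at 0.84 ± 0.11. The choice of the coding-transcript value was made after the data were seen. With it, no gene was called when any single library other than EV_Ctrl 2 was left out.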
